A study of Mus musculus with 6 samples.

Results

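The 45 genes described here encode the machinery with which the endoplasmic reticulum (ER) takes in, folds and ships secreted proteins such as procollagen. They were taken by symbol from a deposited table of 24411 genes, and all 45 were present and passed the filter on low counts. They fall into 6 subgroups by role: 13 ER chaperones and folding enzymes, 7 genes of the unfolded protein response and of ER-associated degradation (ERAD), 7 genes of the translocon, 10 of the COPII coat, 5 cargo and retrieval receptors, and 3 of the COPI coat. Expression was measured by RNA-seq in Achilles tendon taken at 18 weeks of age from C57BL/6 mice, with 3 libraries of genotype WT and 3 of genotype Scx-Cre/Piezo1 GOF. The latter pairs Scx-Cre, a Cre recombinase under control of Scx (a transcription factor gene of tendon), with a Piezo1 allele of increased activity (gain of function, GOF). Piezo1 encodes a cation channel opened by mechanical force. The Cre acts in cells that express Scx or descend from such cells, so other cells of the dissected tendon keep the normal channel gene. The labels name no Cre in the WT group and do not say whether each library came from its own animal, so the p-values measure the spread between these libraries, which may be technical.

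A tendon fibroblast secretes large amounts of procollagen, which enters the ER through the Sec61 translocon and is folded there by chaperones, disulfide isomerases and prolyl isomerases. COPII coats then form carriers at ER exit sites, where the receptor encoded by Mia3 helps to pack procollagen, which is too long for an ordinary vesicle. COPI coats and KDEL receptors bring escaped chaperones back from the Golgi. When unfolded protein accumulates, 3 sensors, encoded by Ern1, Eif2ak3 and Atf6, switch on the unfolded protein response, whose transcription factors XBP1, ATF4 and ATF6 raise chaperone and export genes. CREB3L1 and CREB3L2 are related membrane-bound factors that are known to drive collagen and COPII genes in bone and cartilage.

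Known regulatory elements in the promoters are shown first, because the chaperone genes and the export genes carried different ones. RefSeq promoter windows on GRCm38.p6, from 250 bases before the transcription start to 50 bases from it onward, were matched to 38 of the 45 genes. The other 7 were Atf6, Creb3l1, Kdelr2, Lman1, Manf, Sec61a1 and Ssr2. The ER stress response element (ERSE), searched on both strands as CCAAT and CCACG with any 9 bases between them, stood in 7 of these 38 genes and in 0.119% of all 32851 promoter windows. The 7 were Hspa5, Hsp90b1, Calr, Canx, Pdia6, Creld2 and Dnajc3, all of the chaperone subgroup. The following stretches, read 5′ to 3′ on the strand of the gene, show the element in capitals, and for Calr and Creld2 the capitals hold its reverse complement.
Hspa5 (chr2:34772019-34772049, plus strand): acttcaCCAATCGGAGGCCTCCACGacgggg
Hsp90b1 (chr10:86705632-86705662, minus strand): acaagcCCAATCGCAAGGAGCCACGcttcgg
Calr (chr8:84847069-84847099, minus strand): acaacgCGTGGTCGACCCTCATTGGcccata
Canx (chr11:50325794-50325824, minus strand): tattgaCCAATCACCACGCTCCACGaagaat
Pdia6 (chr12:17266485-17266515, plus strand): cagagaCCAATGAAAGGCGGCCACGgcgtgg
Creld2 (chr15:88819514-88819544, plus strand): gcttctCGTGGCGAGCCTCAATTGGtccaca
Dnajc3 (chr14:118937821-118937851, plus strand): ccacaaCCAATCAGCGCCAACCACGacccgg
Hsp90b1 held a further match closer to its start. In Hspa5 the element lay 65 to 47 bases before the transcription start, at -65 to -47 with the first transcribed base as 0.

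A shorter element, the unfolded protein response element (UPRE), searched as TGACGTGG on both strands, stood in 5 of the 38 genes and in 0.676% of all windows. Its carriers were Kdelr3, Sec24d, Sec23a, Copb1 and Copb2, none of them a chaperone. The reverse complement of this element, CCACGTCA, shares the letters CCACG with the ERSE. The next stretches show it in capitals, in the reverse complement for Kdelr3 and Copb1.
Kdelr3 (chr15:79516372-79516391, plus strand): gccccgCCACGTCAccgcgc
Sec24d (chr3:123267464-123267483, plus strand): ggcgccTGACGTGGcactag
Copb1 (chr7:114254695-114254714, minus strand): ccccttCCACGTCAgccaag
A further element, ERSE-II, searched on both strands as ATTGG and CCACG with any 1 base between them, was found in Dnajb11 and in 0.0365% of all windows. The 250 bases before the starts of Hspa5 and Kdelr3 are given whole because these genes, both with an element near the start, differed little (Hspa5) and much (Kdelr3) in level between the genotypes, as described below.
Hspa5 (chr2:34771840-34772089, plus strand, ERSE in capitals): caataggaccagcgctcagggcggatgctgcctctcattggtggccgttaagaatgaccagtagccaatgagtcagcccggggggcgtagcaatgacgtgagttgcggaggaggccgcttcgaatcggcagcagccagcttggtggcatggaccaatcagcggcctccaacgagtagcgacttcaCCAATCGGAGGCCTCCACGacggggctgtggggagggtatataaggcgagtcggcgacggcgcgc
Kdelr3 (chr15:79516158-79516407, plus strand, UPRE in capitals): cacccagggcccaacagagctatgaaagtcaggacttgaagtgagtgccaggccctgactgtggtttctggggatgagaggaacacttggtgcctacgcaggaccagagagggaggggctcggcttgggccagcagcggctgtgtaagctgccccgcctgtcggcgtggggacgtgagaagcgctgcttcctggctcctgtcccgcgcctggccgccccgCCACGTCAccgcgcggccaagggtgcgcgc

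Levels are given in CPM, the count of a gene in each 1000000 scaled counts of its library, and differences as log2 fold changes of Piezo1 GOF over WT with their standard error (SE). Total counts were between 8131527 and 17180856 per library, and the 45 genes together took 0.330% to 0.432% of counts in WT and 0.421% to 0.626% in Piezo1 GOF. The tissue was not the same in all libraries. Markers of skeletal muscle (21 of 21 genes in the table, none at 0 in all libraries) summed to 8.23%, 17.7% and 15.4% of scaled counts in WT replicates 1 to 3 and to 8.13%, 2.63% and 6.57% in Piezo1 GOF replicates 1 to 3. Tenocyte markers (9 of 9) summed to 0.477% to 1.36% in WT and 2.54% to 4.69% in Piezo1 GOF, with the lowest value in WT replicate 2 and the highest in Piezo1 GOF replicate 2. The collagen gene Col1a1 stood at 1894, 117 and 1452 CPM in WT and at 4352, 4708 and 3821 CPM in Piezo1 GOF, so WT replicate 2 stood apart from the other WT libraries. The summed cartilage, bone and macrophage markers were also each higher in every Piezo1 GOF library than in every WT library. Single cartilage and bone markers could overlap, such as Sox9, at 33.2 CPM in WT replicate 2 and 21.4 CPM in Piezo1 GOF replicate 3. The cartilage sum was mostly Chad (13738 of 13928 CPM in Piezo1 GOF replicate 1). Antibody-secreting cells, whose ER is also large, were near absent: 6 of 8 B and plasma cell markers were in the table, their sum was at most 1.61 CPM in any library, and Ms4a1 was at 0 in all. In such bulk tissue, fewer cells of a type and less RNA per cell cannot be told apart, and the part of cell makeup in the differences below was tested only for the muscle score given with them.

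Most of the 45 genes had a higher level in Piezo1 GOF, by modest amounts that differed between the subgroups. The log2 fold change was positive for 37 genes and negative for 8, with a median of 0.45, while the median over all 13466 genes tested was -0.0045. None of the 45 passed an adjusted p of 0.05 by edgeR's quasi-likelihood test, a threshold that 0.0149% of all genes passed as higher and 0.00% as lower. At an unadjusted p under 0.05, 17 of the 45 were higher and 2 lower, against 10.2% and 9.59% of all genes tested. The CPM values of the genotypes did not overlap for 23 genes that were higher and 2 that were lower, against 13.6% and 12.1% of all genes. The translocon had the highest median log2 fold change (0.79), followed by the cargo and retrieval receptors (0.64), the chaperones (0.54), the COPII coat (0.31), the COPI coat (0.068) and the genes of the unfolded protein response and ERAD (-0.056). DESeq2 called 8 of the 45 higher, against 3.73% of all genes, namely Creb3l1, Kdelr3, Sec61b, Ppib, Kdelr2, Sec61a1, Ssr2 and Sec24d. The exact test of edgeR called 7 higher, against 3.36% of all genes, and limma voom called 0, against 0.720%, and none of these tools called any of the 45 lower, against 2.74%, 1.76% and 0.141%. Without WT replicate 1, edgeR's quasi-likelihood test called Creb3l1, Kdelr3 and Sec61b, 3 of the 45, higher, against 1.32% of all genes, and 0 lower, against 0.332%. Leaving out any other single library, this test called 0 of the 45 and 0 of all genes tested, higher or lower. Without a filter on low counts it called 1 higher (Creb3l1), against 0.767%, and 0 lower, against 0.131%. Without Piezo1 GOF replicate 2 the median of the 45 was 0.28 and that of the COPII coat 0.20, and without WT replicate 1 the median of the receptors was 1.03. The COPI coat median was -0.098 without Piezo1 GOF replicate 3. The median of the stress response genes was 0.013 without that library, 0.0032 without WT replicate 3 and 0.0006 without Piezo1 GOF replicate 1, so the signs of both medians rested on single libraries.

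**Figure D1:**
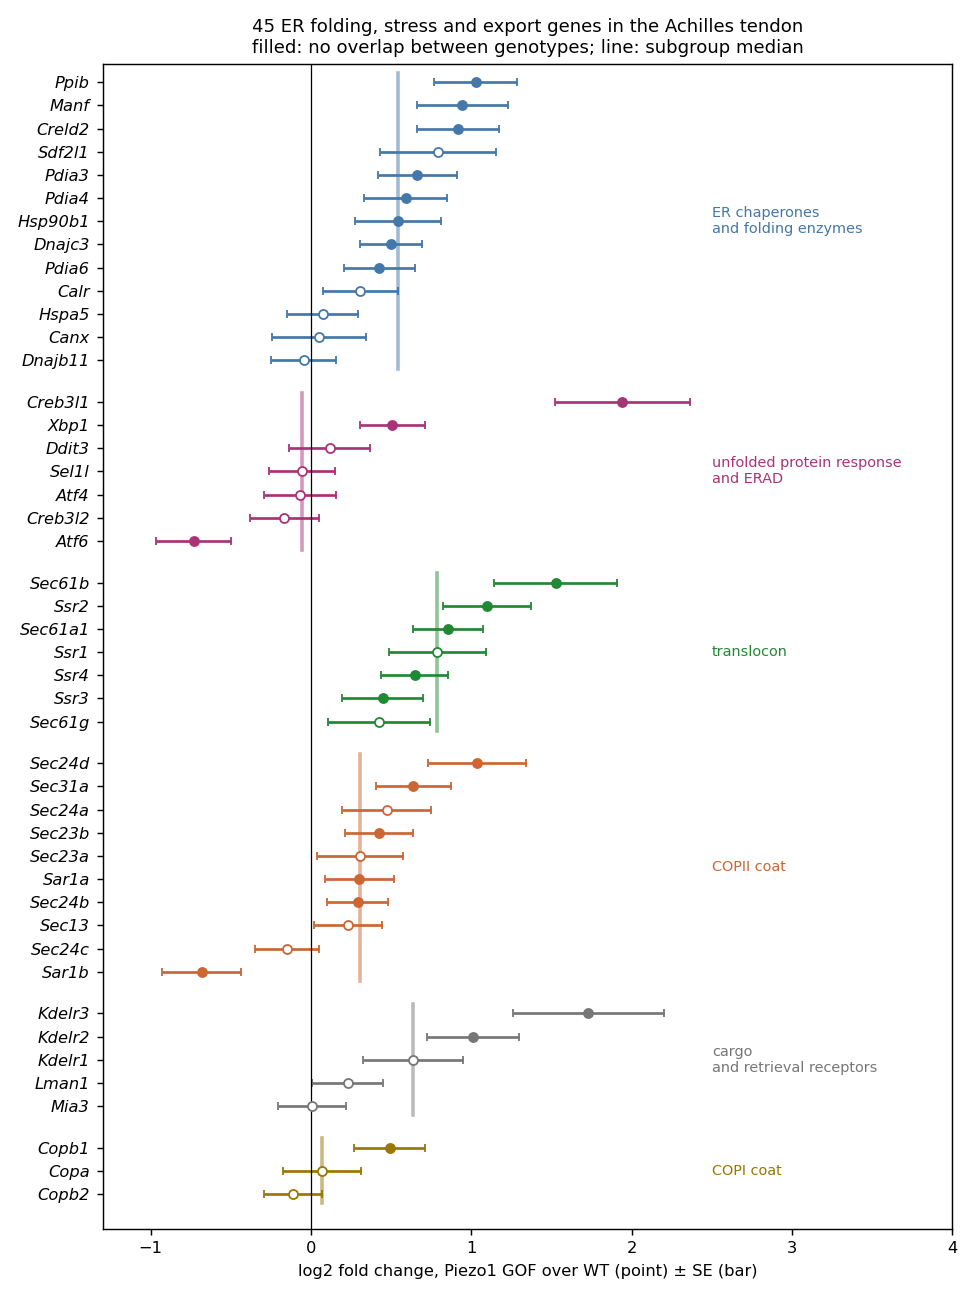
Log2 fold change of Piezo1 GOF over WT (horizontal axis; point, with the SE as a bar) for the 45 genes, grouped by role, with filled points where the 3 libraries of each genotype did not overlap and a vertical line at each subgroup's median. All 7 translocon genes lie right of 0, while the stress response genes spread from -0.73 (Atf6) to 1.94 (Creb3l1).

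The widest differences among the stress genes were those of 2 membrane-bound transcription factors, in opposite directions, while Atf4, Ddit3 and Sel1l overlapped between the genotypes. Creb3l1, which encodes a factor of collagen-secreting cells, stood at 32.2, 10.8 and 21.4 CPM in WT and at 91.0, 105.7 and 49.8 CPM in Piezo1 GOF. The lowest mutant library thus lay above the highest WT library. Its log2 fold change was 1.94 ± 0.42 (SE; edgeR unadjusted p = 0.0013, adjusted p = 0.104), or 3.84-fold, the largest of the 45. Creb3l1 passed by DESeq2 (adjusted p = 4.41e-04). It also passed without WT replicate 1, its highest WT library (edgeR adjusted p = 0.0418), but not when any other single library was left out. Creb3l1 (ENSMUSG00000027230.9) is a minus-strand gene of chromosome 2 (GRCm38, 91982328 to 92024502). Its relative Creb3l2 stood at 51.98, 52.2 and 66.7 CPM in WT and 58.8, 41.5 and 52.1 CPM in Piezo1 GOF, with overlapping genotypes (-0.17 ± 0.22). Per kilobase of annotated exon, mean levels of Creb3l1 and Creb3l2 were 8.25 and 8.04 CPM in WT and 31.6 and 7.17 CPM in Piezo1 GOF. Within a library, the CPM of Creb3l1 was 0.623, 0.214 and 0.325 times that of Creb3l2 in WT and 1.54, 2.53 and 0.956 times in Piezo1 GOF. All mutant ratios lay above all WT ratios, a mean difference of 2.14 on the log2 scale (two-sided exact permutation p = 0.1, the smallest that 3 against 3 allows, and 0.143 after adjustment over the 10 pairs compared).

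Atf6, which encodes a sensor that is cut in the Golgi to free a transcription factor, was at 68.4, 110.9 and 82.7 CPM in WT and at 50.6, 47.4 and 59.8 CPM in Piezo1 GOF. Every mutant library was below every WT library (log2 fold change -0.73 ± 0.23; edgeR unadjusted p = 0.0124, adjusted p = 0.171). Xbp1, the target of the sensor IRE1, was at 91.9, 91.5 and 72.5 CPM in WT and 112, 132 and 120.02 CPM in Piezo1 GOF, without overlap (0.51 ± 0.20; edgeR unadjusted p = 0.0344, adjusted p = 0.222). These are levels per gene, so the spliced form of Xbp1 that encodes the active factor was not measured.

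Atf4, the transcription factor of the PERK branch, was at 90.8, 131 and 97.8 CPM in WT and 116, 97.9 and 91.6 CPM in Piezo1 GOF (-0.069 ± 0.22). Its target Ddit3, which encodes the death-promoting factor CHOP, was at 20.7, 13.0 and 15.05 CPM in WT and 18.5, 19.1 and 15.3 CPM in Piezo1 GOF (0.12 ± 0.25). Both sets of values overlapped throughout, and the sign of either value changed when WT replicate 2 was left out. The ratio of Ddit3 to Atf4 within a library was 0.233, 0.103 and 0.158 in WT and 0.163, 0.199 and 0.172 in Piezo1 GOF (mean log2 difference 0.19; exact permutation p = 0.7, adjusted p = 0.7). The Ddit3 count is uncertain, since its exons share 68 bases with Mars on the other strand and the use of strand in counting is not given. Sel1l, which holds the ERAD ubiquitin ligase together, averaged 113 ± 15.2 CPM in the WT libraries against 109 ± 9.30 CPM in the mutant ones (SD, n = 3 each).

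Among the chaperones, log2 fold changes ran from -0.045 for Dnajb11 to 1.03 for Ppib, and 12 of 13 were positive. Hspa5, which encodes BiP, the main ER chaperone and standard marker of ER stress, was at 252, 269 and 259 CPM in WT and 266, 267 and 287 CPM in Piezo1 GOF. The genotypes overlapped and differed by 0.073 ± 0.22 on the log2 scale (edgeR adjusted p = 0.876). Ppib, which encodes the prolyl isomerase cyclophilin B that acts on procollagen, was at 75.9, 46.6 and 55.4 CPM in WT and 115, 149.8 and 98.0 CPM in Piezo1 GOF. All mutant libraries were above all WT libraries (2.04-fold, 1.03 ± 0.26; edgeR unadjusted p = 0.00345, adjusted p = 0.126). Its exons share 825 bases with Snx22 on the other strand, which had a log2 fold change of 0.35, so part of the Ppib count may belong to that gene. Hsp90b1, Sec24c and Copa likewise share 415, 214 and 195 exon bases with a gene of the other strand.

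Creld2, which encodes a secreted ER stress protein, was at 12.7, 11.9 and 10.2 CPM in WT and 20.4, 27.99 and 17.4 CPM in Piezo1 GOF (0.92 ± 0.26; edgeR unadjusted p = 0.00587, adjusted p = 0.143). Manf, which encodes a cofactor of BiP, was at 11.6, 10.9 and 11.5 CPM in WT and 16.6, 30.8 and 18.1 CPM in Piezo1 GOF (0.94 ± 0.28; edgeR unadjusted p = 0.00898, adjusted p = 0.162). Neither gene overlapped between genotypes, and in both Piezo1 GOF replicate 2 was the highest library. Of the 13 chaperone genes, 6 had an unadjusted p under 0.05 and were higher, against 10.2% of all genes, and 0 were lower, against 9.59%. Values of 8 were higher without overlap, against 13.6%. The 6 were Ppib, Creld2, Manf, Pdia3, Dnajc3 and Pdia4. Without WT replicate 2, as without Piezo1 GOF replicate 2, the chaperone genes below this p were Ppib, Creld2 and Manf. In these fits 959 of 13835 and 979 of 13845 genes tested, respectively, were higher at this p.

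The disulfide isomerase genes Pdia3 (0.66 ± 0.25), Pdia4 (0.59 ± 0.26) and Pdia6 (0.43 ± 0.22) lay close together, and the gap between the genotypes for Pdia6 was a fraction of 1 CPM. The lectin chaperone genes Calr (0.31 ± 0.23) and Canx (0.049 ± 0.29), whose products hold glycoproteins for folding, overlapped. Hsp90b1, which encodes GRP94, was at 123, 121 and 125 CPM in WT and 136, 249 and 151 CPM in Piezo1 GOF (0.54 ± 0.27), where the mutant mean rested on replicate 2. The value without that library was 0.25. The ratio of Hspa5 to Hsp90b1 was 2.04, 2.22 and 2.07 in WT and 1.95, 1.07 and 1.89 in Piezo1 GOF (mean log2 difference -0.42; exact permutation p = 0.1, adjusted p = 0.143). The co-chaperone genes split: Dnajc3 averaged 77.1 ± 7.51 CPM in the WT libraries against 109 ± 8.28 CPM in the mutant ones, and Dnajb11 at 29.5 ± 2.76 and 28.6 ± 4.43 CPM (SD, n = 3 each). The 7 genes with an ERSE had log2 fold changes from 0.049 (Canx) to 0.92 (Creld2) with a median of 0.43, and the 25 genes with a promoter window and none of the 3 elements had the same median of 0.43.

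**Figure D2:**
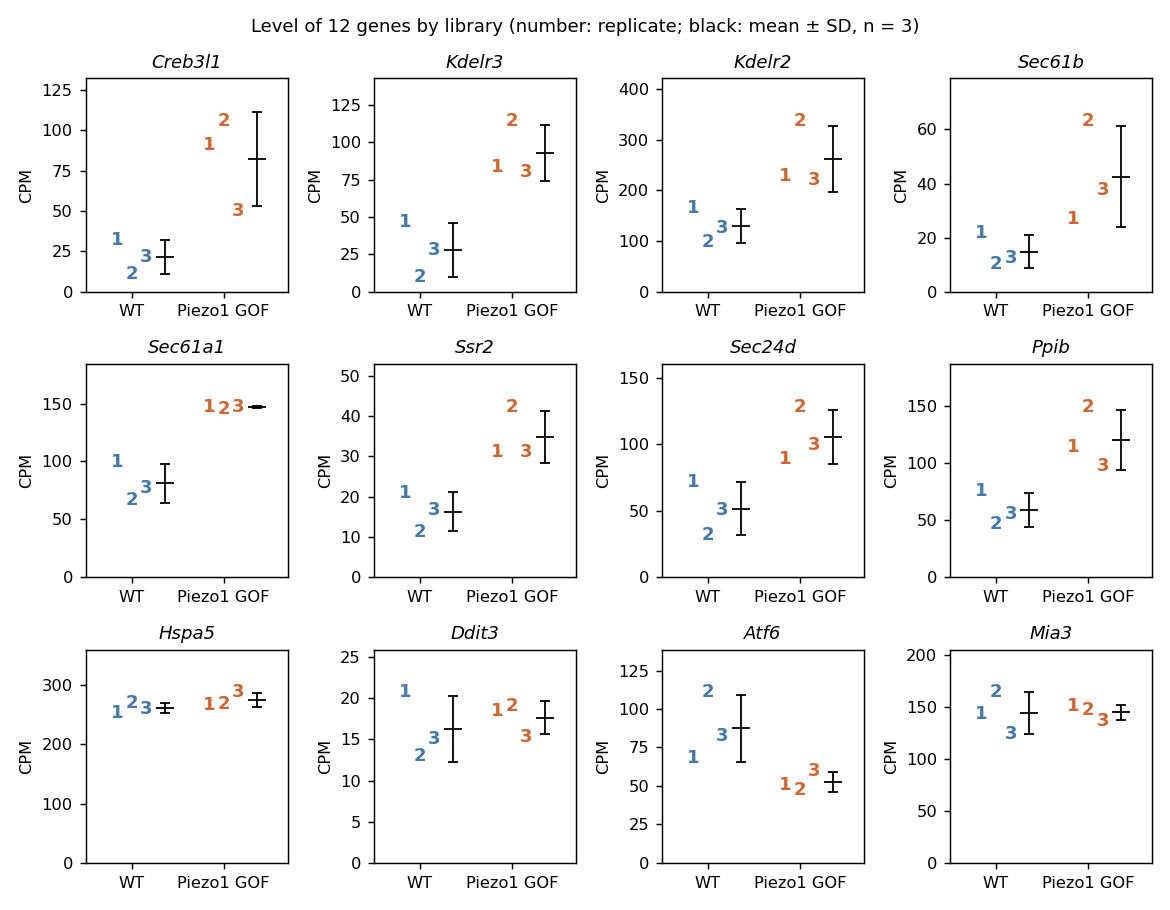
CPM in each library for 12 genes (digits: replicate number; black bar: mean ± SD of 3 libraries; each vertical axis starts at 0). Creb3l1, Kdelr3, Kdelr2, Sec61b, Sec61a1, Ssr2, Sec24d and Ppib show no overlap with the mutant higher, Atf6 none with the mutant lower, and Hspa5, Ddit3 and Mia3 overlap.

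All 7 genes of the translocon had a positive log2 fold change, from 0.43 for Sec61g to 1.53 for Sec61b, 5 were higher without overlap (13.6% of all genes) and 5 were higher at an unadjusted p under 0.05 (10.2%). Sec61a1, which encodes the pore itself, was at 99.8, 66.4 and 77.1 CPM in WT and at 147, 146 and 147 CPM in Piezo1 GOF. The mutant libraries were nearly equal and all above WT (1.81-fold, 0.85 ± 0.22; edgeR unadjusted p = 0.00387, adjusted p = 0.127). Sec61b, which encodes a small subunit beside the pore, was at 21.8, 10.2 and 12.4 CPM in WT and 26.8, 63.1 and 37.7 CPM in Piezo1 GOF (1.53 ± 0.38; edgeR unadjusted p = 0.0033, adjusted p = 0.125). Here the mutant libraries were widely spread, and the nearest libraries of the genotypes were WT replicate 1 and Piezo1 GOF replicate 1. It passed without WT replicate 1 (edgeR adjusted p = 0.0490), but not when any other single library was left out. Ssr1 to Ssr4 encode the TRAP complex, which helps some chains to enter the pore. Ssr2 was at 20.9, 11.3 and 16.6 CPM in WT and 31.1, 42.3 and 31.0 CPM in Piezo1 GOF (1.10 ± 0.27; edgeR unadjusted p = 0.0031, adjusted p = 0.122). Ssr4 was at 41.2, 33.2 and 34.1 CPM in WT and 51.8, 66.9 and 51.2 CPM in Piezo1 GOF (0.65 ± 0.21; edgeR unadjusted p = 0.0128, adjusted p = 0.171). Both were separated by genotype, as was Ssr3 (0.45 ± 0.25), whereas Ssr1 (0.79 ± 0.30) and Sec61g (0.43 ± 0.32) overlapped.

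The COPII coat was uneven, with log2 fold changes from -0.68 (Sar1b) to 1.03 (Sec24d). Of its 10 genes, 5 were higher without overlap (Sec24d, Sec31a, Sec23b, Sar1a and Sec24b) and 1 lower (Sar1b), against 13.6% and 12.1% of all genes. Sec24 proteins are the cargo-binding subunits of the inner coat, and loss of Sec24d is known to disturb collagen export in fish and people. Sec24d was at 71.9, 32.1 and 50.9 CPM in WT and 88.9, 128 and 99.3 CPM in Piezo1 GOF, with no overlap (2.05-fold, 1.03 ± 0.31; edgeR unadjusted p = 0.00841, adjusted p = 0.158). The other Sec24 genes had log2 fold changes of 0.47 ± 0.28 (Sec24a), 0.29 ± 0.19 (Sec24b) and -0.15 ± 0.20 (Sec24c). Per kilobase of annotated exon, the mean levels of Sec24a, Sec24b, Sec24c and Sec24d were 7.16, 14.3, 18.7 and 12.9 CPM in WT and 9.94, 17.4, 16.8 and 26.4 CPM in Piezo1 GOF, so Sec24d ranked below Sec24b and Sec24c in WT and above both in Piezo1 GOF. Within a library the ratio of Sec24d to Sec24c was 0.852, 0.357 and 0.65 in WT and 1.24, 1.87 and 1.12 in Piezo1 GOF, without overlap (mean log2 difference 1.24; exact permutation p = 0.1, adjusted p = 0.143). The ratio of Sec24d to Sec24b did not overlap either (mean log2 difference 0.80; exact permutation p = 0.1, adjusted p = 0.143).

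Sar1a and Sar1b encode the GTPases that start coat assembly, and their differences had opposite signs. Sar1b was at 35.4, 52.0 and 32.2 CPM in WT and 24.3, 21.0 and 29.4 CPM in Piezo1 GOF (-0.68 ± 0.25; edgeR unadjusted p = 0.0228, adjusted p = 0.197). Sar1a averaged 174 ± 9.27 CPM in the WT libraries against 215 ± 25.4 CPM in the mutant ones (SD, n = 3 each; 0.30 ± 0.22). Neither gene overlapped between genotypes. The ratio of Sar1a to Sar1b was 4.56, 3.45 and 5.47 in WT and 7.70, 11.3 and 7.14 in Piezo1 GOF (mean log2 difference 0.95; exact permutation p = 0.1, adjusted p = 0.143). Sec31a, which encodes the rod of the outer coat, averaged 203 ± 20.3 CPM in the WT libraries against 317 ± 33.6 CPM in the mutant ones (0.64 ± 0.23; edgeR unadjusted p = 0.0228, adjusted p = 0.198), and its partner gene Sec13 at 62.9 ± 5.32 and 73.7 ± 14.6 CPM with overlap. Sec23a, an inner coat gene in which mutations cause a human skeletal disorder, was at 81.7, 90.7 and 104 CPM in WT and 91.3, 159 and 92.4 CPM in Piezo1 GOF. The genotypes overlapped, and Piezo1 GOF replicate 2 alone stood out (0.31 ± 0.27). The ratio of Sec23a to Sec23b differed by -0.15 on the log2 scale (exact permutation p = 0.5, adjusted p = 0.556).

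The KDEL receptor genes, whose products return chaperones with a C-terminal KDEL signal to the ER, differed most among the receptors, and the procollagen receptor gene Mia3 hardly at all. Kdelr3 was at 46.4, 9.90 and 27.9 CPM in WT and at 83.7, 114 and 80.2 CPM in Piezo1 GOF. WT replicate 2 was far below the other WT libraries, and the mutant libraries lay above all of them (3.32-fold, 1.73 ± 0.47; edgeR unadjusted p = 0.00529, adjusted p = 0.140). It passed without WT replicate 1, its highest WT library (edgeR adjusted p = 0.0485), but not when any other single library was left out. Kdelr3 (ENSMUSG00000010830.8) is a plus-strand gene of chromosome 15 (GRCm38, 79516411 to 79527739). Kdelr2 was at 165, 98.6 and 125 CPM in WT and 227, 336 and 220.4 CPM in Piezo1 GOF, without overlap (2.02-fold, 1.01 ± 0.29; edgeR unadjusted p = 0.00664, adjusted p = 0.146). Kdelr1 overlapped, at 16.7 ± 6.66 and 25.9 ± 5.49 CPM (SD, n = 3 each; 0.64 ± 0.31). Per kilobase of annotated exon, Kdelr2 had the highest mean level of the family in both genotypes (70.8 and 142.9 CPM), against 19.9 and 65.7 CPM for Kdelr3 and 10.1 and 15.7 CPM for Kdelr1. The ratio of Kdelr3 to Kdelr1 was 1.88, 0.776 and 2.14 in WT and 4.08, 3.63 and 3.001 in Piezo1 GOF (mean log2 difference 1.28; exact permutation p = 0.1, adjusted p = 0.143). The ratio of Kdelr2 to Kdelr1 overlapped (mean log2 difference 0.35; exact permutation p = 0.2, adjusted p = 0.25).

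Mia3, which encodes TANGO1, was at 143, 164 and 124 CPM in WT and 150.3, 147 and 137 CPM in Piezo1 GOF (0.0087 ± 0.21; edgeR adjusted p = 0.986), and the sign of this value differed between scalings. Its ratio to the coat gene Sec31a was 0.634, 0.877 and 0.629 in WT and 0.509, 0.414 and 0.458 in Piezo1 GOF, lower in every mutant library (mean log2 difference -0.62; exact permutation p = 0.1, adjusted p = 0.143). Lman1, which encodes the lectin receptor ERGIC-53, averaged 54.99 ± 6.95 CPM in the WT libraries against 64.4 ± 12.5 CPM in the mutant ones (SD, n = 3 each). In the COPI coat, Copa was at 227, 248 and 239.9 CPM in WT and 216, 227 and 307 CPM in Piezo1 GOF, with overlap (0.068 ± 0.24). Copb1 (0.49 ± 0.22) did not overlap and Copb2 (-0.11 ± 0.18) did. The 5 genes with a UPRE in the promoter window ran from -0.11 for Copb2 to 1.73 for Kdelr3, with a median log2 fold change of 0.49.

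**Figure D3:**
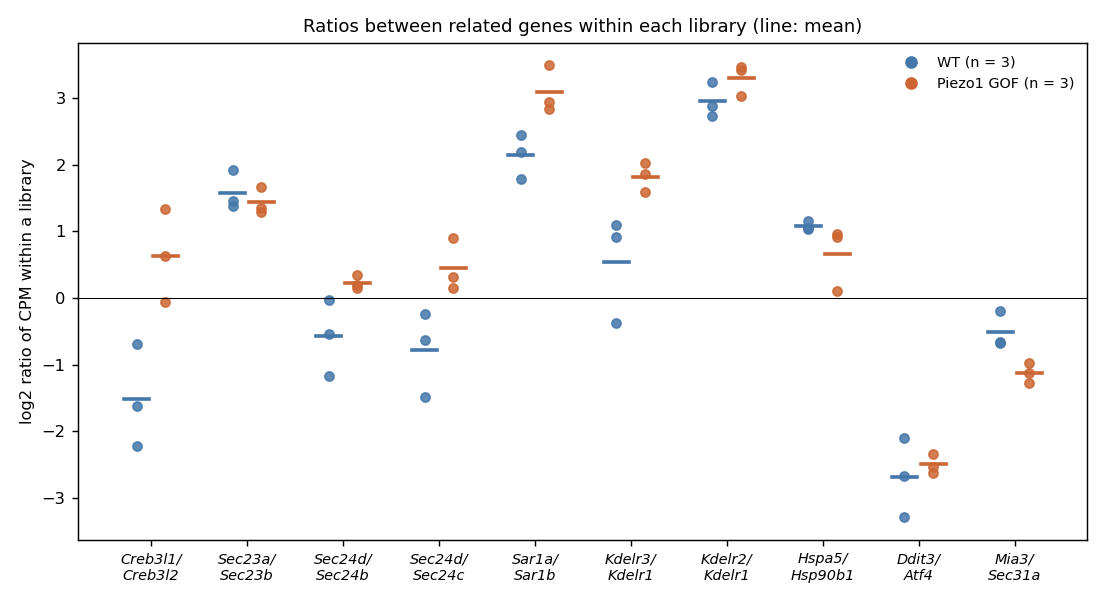
Log2 ratio of the CPM values of related genes within each library (vertical axis; points: libraries, lines: means of 3) for the 10 pairs compared. The genotypes do not overlap for 7 pairs, with Creb3l1/Creb3l2 the widest apart at 2.14, and overlap for Sec23a/Sec23b, Kdelr2/Kdelr1 and Ddit3/Atf4.

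The differences followed the libraries unevenly, and muscle content moved with them. Piezo1 GOF replicate 2, the library with the lowest muscle share, was the highest of the 6 libraries for 30 of the 45 genes, against 28.6% of all genes tested, and WT replicate 2, with the highest muscle share, was the lowest for 25, against 25.2%. WT replicate 1 and Piezo1 GOF replicate 1 had nearly the same muscle share, 8.23% and 8.13%, but differed in other markers. Their tenocyte markers summed to 1.36% and 2.54%, cartilage to 0.365% and 1.39%, bone to 0.0404% and 0.178%, and macrophage to 0.0236% and 0.0653%. Endothelial (0.0662% and 0.0436%) and adipocyte markers (0.0478% and 0.0437%) summed lower in Piezo1 GOF replicate 1. Between these libraries 35 of the 45 genes were higher in Piezo1 GOF replicate 1 and 10 lower, while 49.1% of all genes tested were higher. Creb3l1 was at 32.2 and 91.0 CPM, Kdelr3 at 46.4 and 83.7 CPM and Sec61a1 at 99.8 and 146.9 CPM, and among the 10 lower were Canx (390.3 and 347.8 CPM), Kdelr1 (24.4 and 20.2 CPM) and Sec61g (18.6 and 16.6 CPM). This sets 1 library against 1, with no replicate check. With the muscle score (the mean log2 CPM of the 21 markers) as a covariate, edgeR's quasi-likelihood test gave 9 of the 45 genes higher at an unadjusted p under 0.05, against 5.48% of all genes, and 0 lower, against 3.97%. The score weights each marker equally and the share is a sum, so they need not order the libraries alike. Between WT replicate 1 and Piezo1 GOF replicate 1, Myh4 was at 61.5 and 980 CPM and Myh1 at 3186 and 919 CPM. The 9 were Creb3l1 (1.51 ± 0.37), Kdelr3 (1.26 ± 0.40), Sec61b (0.90 ± 0.26), Ssr2 (0.76 ± 0.23), Sec61a1 (0.76 ± 0.23), Ppib (0.72 ± 0.22), Creld2 (0.68 ± 0.27), Sec24d (0.66 ± 0.25) and Kdelr2 (0.64 ± 0.22), and none passed with adjustment over all genes. The median log2 fold change of the 45 was then 0.20. Tenocyte, cartilage, bone and macrophage markers also moved with the genotype, and their part in the differences was not tested.

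**Figure D4:**
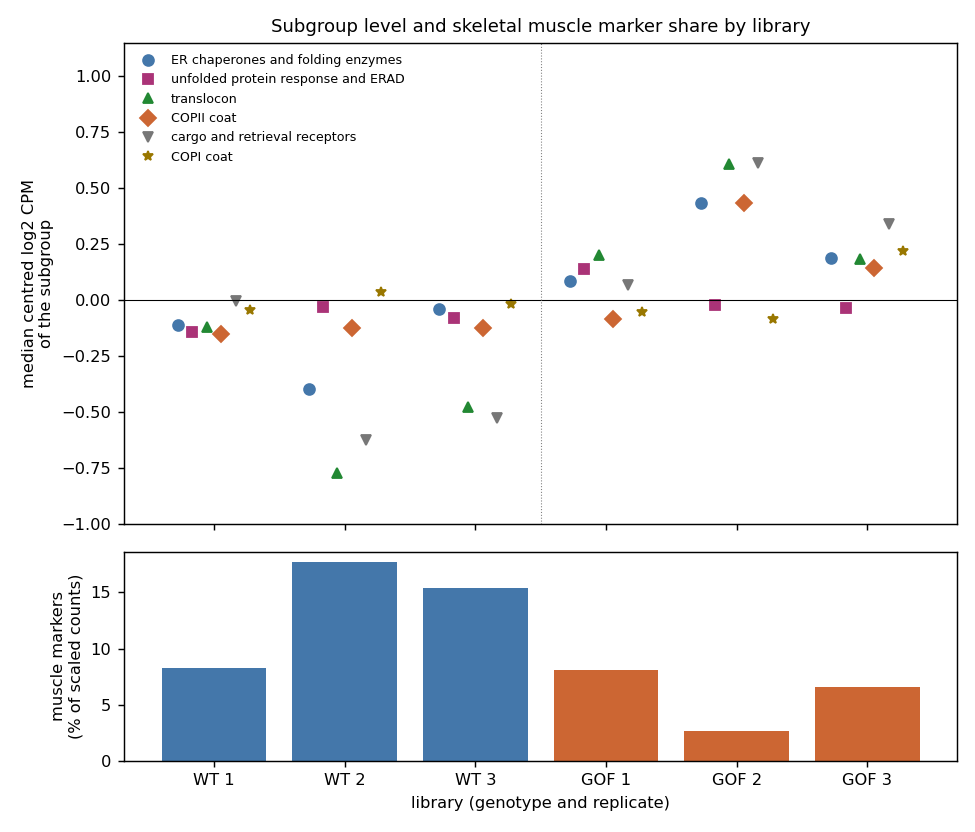
Upper panel: median, over the genes of a subgroup, of log2 CPM centred on each gene's mean over the 6 libraries. Lower panel: share of scaled counts from 21 skeletal muscle markers. The medians of translocon and receptor genes range from -0.77 in WT replicate 2 to 0.61 in Piezo1 GOF replicate 2. The median of the stress response genes stays between -0.14 and 0.14, although Creb3l1 and Atf6 in this subgroup differed in opposite directions.

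Further genes of the same pathway had mostly positive values as well. Of 111 listed, 108 were tested, 88 with a positive and 20 with a negative log2 fold change and a median of 0.31, and at an unadjusted p under 0.05 27 were higher and 2 lower (10.2% and 9.59% of all genes). None passed with adjustment over all genes by edgeR's quasi-likelihood test. DESeq2 and the exact test of edgeR each called 7 higher (3.73% and 3.36% of all genes), and limma voom called 1 (0.720%). The quasi-likelihood test called 3 higher without WT replicate 1 (1.32%) and 1 without a filter on low counts (0.767%). Each of these called 0 lower (0.131% to 2.74%). By role, the genes higher at an unadjusted p under 0.05 were 7 of 22 folding genes, 8 of 26 genes of translocation and glycosylation and 4 of 12 COPI genes, each with 0 lower, and 5 of 24 stress response and ERAD genes and 3 of 24 COPII and cargo genes, each with 1 lower. The prolyl isomerase genes Fkbp14 and Fkbp9 had log2 fold changes of 1.53 ± 0.35 and 1.57 ± 0.40, and Rpn2, a subunit gene of the glycosylating enzyme, of 1.147 ± 0.29. Their edgeR adjusted p-values were 0.109, 0.127 and 0.126, and none overlapped between genotypes. Copz2, a COPI subunit gene, averaged 24.5 ± 6.38 CPM in the WT libraries against 44.3 ± 3.06 CPM in the mutant ones (SD, n = 3 each; 0.86 ± 0.24).

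Among the stress genes outside the 45, Nupr1, which encodes a small stress-induced nuclear protein, had the largest value. It was at 11.3, 4.92 and 8.60 CPM in WT and 25.9, 53.0 and 28.5 CPM in Piezo1 GOF (2.13 ± 0.39; edgeR adjusted p = 0.0648). Eif2ak3, which encodes the sensor PERK, was at 24.6, 27.5 and 20.6 CPM in WT and 34.1, 49.96 and 42.1 CPM in Piezo1 GOF (0.79 ± 0.22; edgeR adjusted p = 0.145). Values of PERK branch targets were mixed. Besides Atf4 and Ddit3, Trib3 had a log2 fold change of 0.36 ± 0.38, Asns of 0.49 ± 0.35, Atf3 of -0.48 ± 0.54, Ppp1r15a of -0.41 ± 0.46 and Chac1 of -1.86 ± 0.71. Chac1, Atf3, Trib3, Asns and Ppp1r15a were chosen after their values were seen. WT replicate 2 was the highest library for Chac1, Atf3 and Ppp1r15a, and its 35.1 CPM carries the Chac1 value. The BiP partner gene Hyou1 had a log2 fold change of -0.024 ± 0.18 and the exit site scaffold gene Sec16a of -0.11 ± 0.21. The oxidase gene Ero1l (0.16 ± 0.22), the ERAD gene Herpud1 (0.20 ± 0.28) and the cargo receptor gene Surf4 (0.27 ± 0.22) had larger values than Hspa5 and Mia3. All of these but Surf4 overlapped between genotypes, and Surf4 was higher in every mutant library. Of these, Hyou1 and Herpud1 are standard targets of the unfolded protein response.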

How the data were processed

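Per the labels' protocols, total RNA from a Direct-zol column was made into libraries by RamDA-seq (GenNext) with NSR primers for mouse. The authors deposited unscaled expected counts of each gene, and the submitters' processing notes name bcl2fastq, STAR, RSEM, edgeR and the build mm10, with no role for each. Tool versions, annotation and strand setting: not given in the sources used here. Of the values, 7.80% to 8.88% per library were not whole, and they were rounded. Genes were kept by filterByExpr (minimum count 10), which left 13466 of 24411, and libraries were scaled by TMM. The genotype difference was tested over all genes by the quasi-likelihood method of edgeR, two-sided, adjusted by Benjamini-Hochberg and called at 0.05. The SE given with a log2 fold change was derived from this test, as the absolute log2 fold change divided by the square root of its F statistic. With 3 libraries per genotype, the common dispersion was estimated at 0.113. Ratios within a library used CPM plus 0.5 and exact permutation tests over libraries. The steps were tested on simulated counts.

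The 45 genes, the subgroups, the pathway list and the promoter elements were chosen with earlier results of these data known. By rule, 11 genes were named by role, with the 12 of the 45 with the smallest p, and of the other pathway genes 5 by role and 6 by p. Further genes of the 45, such as Creb3l2, Sar1b and Hsp90b1, were given values outside this rule. So were the pathway genes Chac1, Atf3, Trib3, Asns and Ppp1r15a. Gene positions and exon lengths are from GENCODE mouse release M21 on GRCm38, which need not be the annotation the authors used. Alternatives were other scalings, filters and tests, a replicate block, a muscle score covariate (the mean log2 CPM of the 21 markers), removal of gene groups and leaving out each library. No 2 libraries of a genotype agreed within sampling noise (chi-square per degree of freedom 40.9 to 141). Software was R 4.3.3, edgeR 4.0.16, limma 3.58.1, DESeq2 1.42.0 and Python 3.11.15.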

Additional observations from a re-analysis of the deposited data

How the results depend on the processing

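Other scalings, and removal of muscle and erythroid genes or of Rn45s and Lars2, moved no subgroup median by more than the SD between libraries. Over all genes, where 2 were higher and 0 lower, the counts of higher and lower genes were 141 and 24 without a count filter, 514 and 377 by DESeq2, 452 and 237 by the exact test, 97 and 19 by voom, and 0 higher with the replicate block or the muscle covariate. Without single libraries they ran from 0 to 182 higher and from 0 to 46 lower, the upper values without WT replicate 1. Of the 45, 1 passed as higher without a filter, 8 by DESeq2, 7 by the exact test and 0 to 3 without single libraries. At an unadjusted p under 0.05, 11 were higher with the replicate block (7.57% of all genes) and 9 with the muscle covariate (5.48%). The lower count of 2 was 1 by voom (1540 of 13466 genes tested), 1 with the replicate block (5.98% of all genes) and 0 with the covariate (3.97%). Without single libraries it was 1 or 2, when 643 of 13845 to 1482 of 13900 genes tested were lower. Lower genes without overlap numbered 2 to 4 without single libraries, when 14.4% to 20.2% of all genes were lower without overlap.

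With the muscle covariate the medians were 0.20 for the 45, 0.31 for the receptors and 0.44 for the translocon. Without single libraries they ran from 0.28 to 0.53 for the 45, 0.48 to 1.03 for the receptors, 0.56 to 1.05 for the translocon and -0.098 to 0.16 for the COPI coat, and -0.14 to 0.013 for the stress response genes. At an unadjusted p under 0.05, the other pathway genes had 1 lower with the replicate block, an alternative chosen after seeing the data (5.98% of all genes). Without single libraries they had 0 to 4 lower, when 643 of 13845 to 1482 of 13900 genes tested were lower. The log2 ratio of Ddit3 to Atf4 was -0.11 to 0.48 and that of Sec23a to Sec23b -0.26 to 0.022 without single libraries, so both signs turned. The sign of Atf4 turned with the covariate (0.10), without WT replicate 2 and without Piezo1 GOF replicate 3 (-0.17 to 0.11 without single libraries). Ddit3 turned with the covariate (-0.059) and without WT replicate 2 (-0.026 to 0.35 without single libraries), Sec23a with the covariate (-0.043) and Copa without Piezo1 GOF replicate 3 (-0.098 to 0.16 without single libraries). Mia3 turned with DESeq2 size factors (-0.0068), without a filter (-2.6e-05), by DESeq2 (-0.012), without muscle and erythroid genes (-0.014), without Rn45s and Lars2 (-0.014), without WT replicate 3 and without Piezo1 GOF replicate 1 (-0.092 to 0.11 without single libraries). The cause was not tested in any of these. The replicate numbers did not pair the libraries: the correlation of deviations between same-numbered libraries was -0.22, -0.16 and -0.054.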
